A study of Mus musculus with 17 samples.

Results

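Cd7 is the gene of an immunoglobulin-family receptor on the surface of T and NK cells, and its RNA was followed here through 17 RNA-seq libraries of mouse spleen CD8 T cells. It is 1 of 24594 genes listed in the count tables and 1 of 13881 that had enough counts to be tested. The gene was chosen from these same data because its level was higher in Asxl1 KO cells than in each of the other groups, so every comparison of Asxl1 KO with another group is given below as a description with no test.

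The libraries came from CD8 T cells carrying the congenic surface marker Thy1.1, of 4 genetic modifications: 4 libraries of Asxl1 KO, 4 of Dnmt3a KO, 4 of Tet2 KO and 5 of Rosa KO. All 4 groups are knockouts by their labels, and Rosa KO, named for a locus widely used as a neutral site, is the reference for the other groups. Asxl1 encodes a chromatin regulator linked to Polycomb, Dnmt3a a DNA methyltransferase that sets new methyl marks, and Tet2 an enzyme that oxidises methylated cytosine; the title of the series places all of them in clonal hematopoiesis and asks about CD8 T cell stemness during immunotherapy. The labels give neither age, sex, tumour nor treatment, nor how the knockouts were made, and do not state whether replicates are separate animals or cultures, so the p-values here cover variation from library to library that could be technical.

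In human T cells CD7 acts as a costimulatory receptor whose cytoplasmic tail recruits phosphoinositide 3-kinase after crosslinking. Its known partners are SECTM1, a small membrane protein with the mouse relatives Sectm1a and Sectm1b, and galectin-1, a secreted sugar-binding lectin. CD7 is widely used in human haematology as an early marker of the T lineage, and its loss marks some mature T cell populations.

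The mouse gene lies on chromosome 11 at 121036747-121039478 (GRCm38.p6, minus strand) and has 4 exons with a union length of 1133 bases, of which 630 are coding. A long noncoding RNA gene of the opposite strand, Gm11775, overlaps it and is not listed in the count tables. The RNA kit kept strand, but whether the counting used it is not given in the sources used here, so reads of this RNA may be among those counted for Cd7.

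Library totals lay between 6625833 and 40701203 counts with a median of 21642477, and Cd7 alone had between 774 and 16213 counts, so counting error is small beside the spread between libraries. The library codes in the labels fall into 3 runs of neighbouring numbers, whose meaning the labels do not give. Run 1 holds Asxl1 KO 1, Dnmt3a KO 1 and 2 and Rosa KO 1; run 2 holds Asxl1 KO 2, Dnmt3a KO 3 and 4 and Tet2 KO 1 and 2; run 3 holds Asxl1 KO 3 and 4, Tet2 KO 3 and 4 and Rosa KO 2 to 5. No run holds all groups, and Rosa KO is missing from run 2. Asxl1 RNA averaged 105 ± 33.2 CPM (counts-per-million, SD, n = 4) in Asxl1 KO, beside 103 ± 32.8 (n = 5) in Rosa KO, and neither Asxl1, Dnmt3a nor Tet2 passed edgeR's test in its own knockout (adjusted p = 0.836, 0.978 and 0.734), so RNA level does not check these labels. CD8 T cell markers (Cd8a, Cd8b1, Cd3d, Cd3e, Cd3g, Thy1) were all present, at summed levels of 4010 to 10800 CPM in Asxl1 KO and 4030 to 7020 CPM across the other groups.

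Cd7 was the highest in 3 of the 4 Asxl1 KO libraries. Its level, in CPM after TMM scaling of library totals, was 626, 230.4, 732 and 529 in Asxl1 KO 1 to 4. Dnmt3a KO 1 to 4 had 154, 191, 62.97 and 80.8 CPM, and Tet2 KO 1 to 4 had 64.9, 49.7, 164 and 133 CPM. Rosa KO 1 to 5 had 358, 192, 144, 139 and 117 CPM. Asxl1 KO 2 was the exception among its group: its level was 0.644 times that of Rosa KO 1, the highest library outside Asxl1 KO, and above all the others. The highest of the 17 libraries had 14.7 times the Cd7 level of the lowest.

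**Figure D1:**
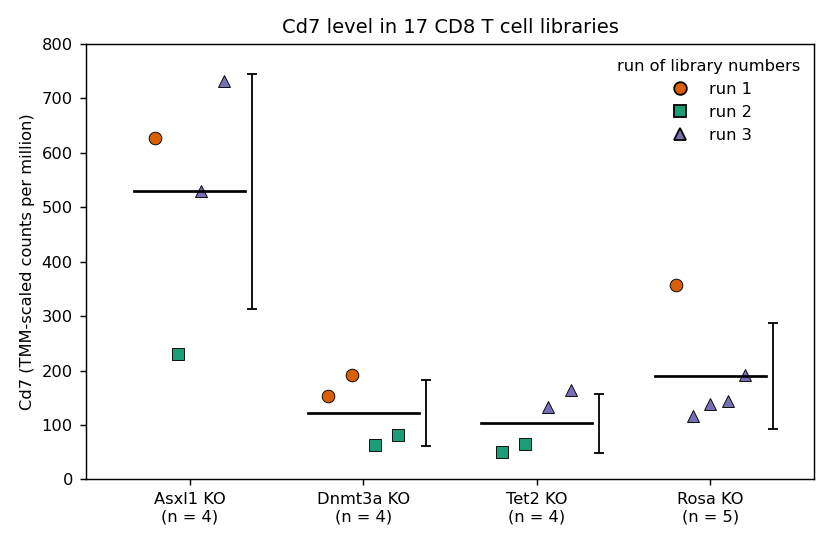
Cd7 level (TMM-scaled CPM) in each of the 17 libraries, by group, with colour and marker showing the run of library numbers; horizontal lines are group means and error bars are SD. Asxl1 KO averaged 529.7 CPM against 190.0 CPM in Rosa KO, with Asxl1 KO 2 (230.4 CPM) and Rosa KO 1 (358 CPM) overlapping.

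The group means were 529.7 ± 216 CPM in Asxl1 KO, 122 ± 60.5 CPM in Dnmt3a KO, 103 ± 54.6 CPM in Tet2 KO and 190.0 ± 97.9 CPM in Rosa KO (SD, n = 4, 4, 4 and 5). From highest to lowest the order was Asxl1 KO, Rosa KO, Dnmt3a KO and Tet2 KO, and the last 3 overlapped. Much of the spread within a group followed the runs. Dnmt3a KO averaged 173 CPM in run 1 and 71.9 CPM in run 2, Tet2 KO 57.3 CPM in run 2 and 149 CPM in run 3, and Rosa KO had 358 CPM in its only run 1 library against a mean of 148 ± 31.7 CPM (SD, n = 4) in run 3. Group alone accounted for 66.5% of the variance of Cd7 on the log2 CPM scale, run alone for 40.3%, and both together for 92.9%. These are the values that chose the gene, so the share of group can be overstated. Groups are spread unequally over the runs, and the shares are not given for other genes.

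Read run by run, every Asxl1 KO library had more Cd7 than every other library of its run. These are the values that chose the gene, and how many other genes show this pattern was not counted. In run 1 the level was 626 CPM in Asxl1 KO, 154 and 191 CPM in Dnmt3a KO and 358 CPM in Rosa KO. Run 2 had 230.4 CPM in Asxl1 KO, 62.97 and 80.8 CPM in Dnmt3a KO and 49.7 and 64.9 CPM in Tet2 KO. In run 3, Asxl1 KO had 529 and 732 CPM, Tet2 KO 133 and 164 CPM, and Rosa KO 117 to 192 CPM. Rosa KO was above both Dnmt3a KO libraries in run 1, whereas Tet2 KO lay within the Rosa KO range in run 3 and overlapped Dnmt3a KO in run 2.

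In a fit of group and run across all genes, Cd7 was 3.27-fold higher in Asxl1 KO than in Rosa KO (log2 fold change 1.71 ± 0.21 SE, 95% interval 2.37- to 4.5-fold). Against Dnmt3a KO the difference was 3.99-fold (95% interval 2.76 to 5.76) and against Tet2 KO 4.02-fold (2.84 to 5.7). These comparisons chose the gene and carry no test. Their folds and intervals make no allowance for that choice and can overstate the difference. Among all tested genes edgeR called 1.64% in Asxl1 KO against Rosa KO, 0.353% against Dnmt3a KO and 0.562% against Tet2 KO. The size against Rosa KO differed between runs: the log2 difference was 0.80 within run 1, which sets 1 library against 1, and 2.09 within run 3. Against Dnmt3a KO it was 1.85 within run 1 and 1.70 within run 2, and against Tet2 KO 2.04 within run 2 and 2.08 within run 3. The Asxl1 KO excess over the other knockouts varied less between runs than the excess over Rosa KO.

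No difference in Cd7 between Dnmt3a KO or Tet2 KO and Rosa KO passed the test, in comparisons that the choice of the gene did not use. The fold was 0.819 in Dnmt3a KO over Rosa KO (log2 fold change -0.29 ± 0.244 SE, 95% interval 0.564- to 1.19-fold, edgeR adjusted p = 0.827), where 0.216% of tested genes were called. In Tet2 KO over Rosa KO it was 0.813 (log2 fold change -0.30 ± 0.224 SE, interval 0.577 to 1.14, adjusted p = 0.669), where 1.47% were called. Dnmt3a KO over Tet2 KO gave 1.01 (interval 0.7 to 1.45, adjusted p = 1.0), with 0.0937% called. The intervals leave room for a decrease of either knockout below Rosa KO, and the sign changed without Rosa KO 1. Without it the log2 fold change over Rosa KO was 0.31 in Dnmt3a KO and 0.0015 in Tet2 KO. Dnmt3a KO and Rosa KO share only run 1, where Rosa KO has 1 library, and no run without that library. Their fitted difference therefore also draws on Asxl1 KO and Tet2 KO libraries, with Cd7 values that chose the gene among them. With only the 2 groups in the fit, or within run 1, the Dnmt3a KO value was -1.05. Within run 3 the Tet2 KO value was 0.00648 (adjusted p = 0.997).

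**Figure D2:**
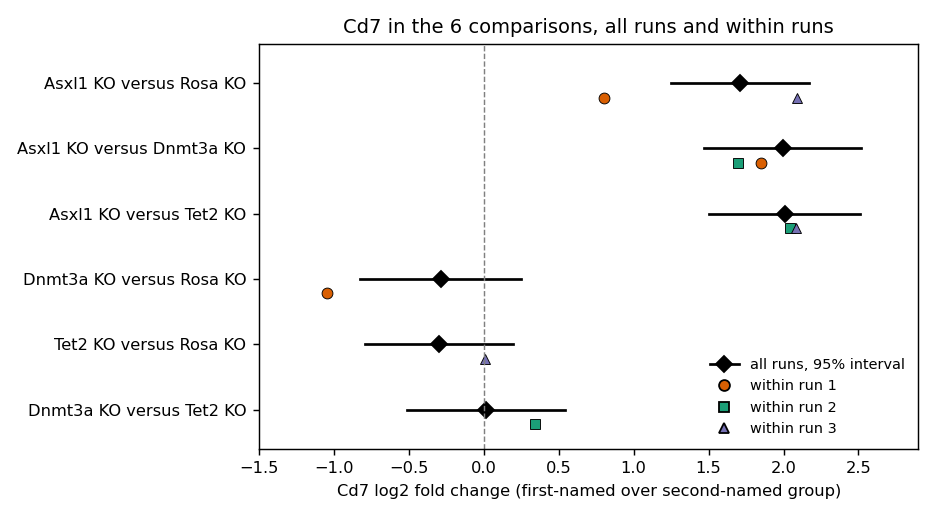
Cd7 log2 fold change, first-named over second-named group, in 6 comparisons; black diamonds and lines are the fit of group and run over 17 libraries with its 95% interval, and coloured markers are the value within a run that holds both groups. The 3 Asxl1 KO values, on which the gene was chosen and which carry no test, lie between 1.71 and 2.01; the other 3 values lie between -0.30 and 0.01.

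How many genes would be chosen as Cd7 was can be counted, as a description with no test of Cd7. An adjusted p under 0.05 and a higher level in Asxl1 KO against each of the other 3 groups selected 2 genes (0.0144%), beside 0.814% called higher against Rosa KO, 0.274% against Dnmt3a KO and 0.447% against Tet2 KO. They were Cd7 and Sh2d2a, which encodes the T cell adaptor TSAd and is named here after its values were seen. Sh2d2a had log2 fold changes of 1.38 over Dnmt3a KO, 1.03 over Tet2 KO and 0.57 over Rosa KO. A stricter pattern, every Asxl1 KO library above every other library, held for 28 tested genes (0.202%) and for neither of these.

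Cd7 stood among the more abundant RNAs of these cells. It ranked from 181 to 817 by CPM in Asxl1 KO, from 1178 to 3381 in Dnmt3a KO, from 1252 to 4149 in Tet2 KO and from 527 to 1917 in Rosa KO. To compare it with other genes, counts were divided by exon length and scaled to a fixed total (TPM), with a length for 97.9% of listed genes. By this measure Cd7 averaged 1550 ± 440 TPM in Asxl1 KO, 412 ± 150 TPM in Dnmt3a KO, 306 ± 122 TPM in Tet2 KO and 598 ± 304 TPM in Rosa KO (SD, n = 4, 4, 4 and 5). Among 17 genes of T cell receptors and their signalling, Cd7 included, its mean TPM ranked 3 in Asxl1 KO, behind Cd3e (2250 TPM) and Cd8b1 (2060 TPM), against 11 in Dnmt3a KO, 11 in Tet2 KO and 8 in Rosa KO.

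Cd7 was also set against T cell genes of the same library, since bulk RNA cannot tell fewer expressing cells from less RNA per cell. The log2 CPM of Cd7 minus the mean of the CD3 genes Cd3d, Cd3e, Cd3g and Cd247, the signalling chains of the T cell receptor, was -0.81, -0.92, -0.14 and -0.74 in Asxl1 KO 1 to 4. Dnmt3a KO 1 to 4 had -2.11, -1.91, -2.70 and -2.68, while Tet2 KO 1 to 4 had -2.77, -3.39, -1.88 and -1.98. Rosa KO 1 to 5 had -0.84, -1.44, -1.86, -1.72 and -1.94. Asxl1 KO 2, low in Cd7, was also low in CD3 genes (8.77 log2 CPM against a group mean of 9.58 ± 0.57), and by this measure only Rosa KO 1 lay within the Asxl1 KO range. The Asxl1 KO mean exceeded the Rosa KO mean by 0.91 (log2), by 1.30 within run 3 and by 0.03 within run 1.

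Relative to the CD8 coreceptor genes Cd8a and Cd8b1, Asxl1 KO did not overlap the other groups, which overlapped one another. The Cd7 values are those that chose the gene, and the same was not counted for other genes. Asxl1 KO ranged from -1.15 to -0.57 (log2), Dnmt3a KO from -3.66 to -2.52, Tet2 KO from -3.79 to -2.11 and Rosa KO from -2.58 to -1.35. All 4 Asxl1 KO libraries lay above the other libraries, with Rosa KO 1 the nearest, and the mean was -0.93 in Asxl1 KO against -2.18 in Rosa KO.

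**Figure D3:**
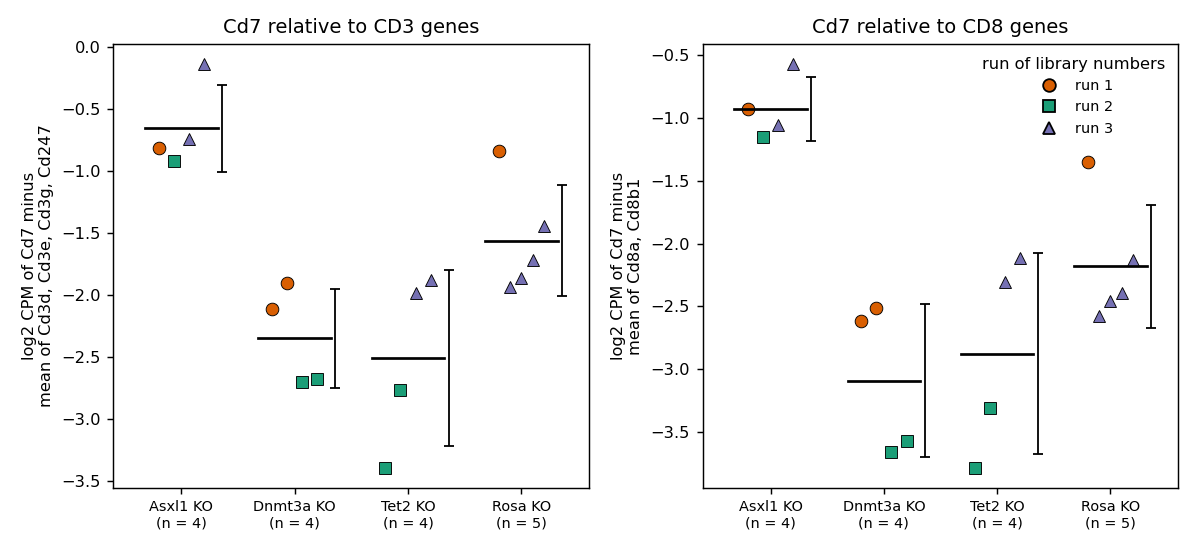
Log2 CPM of Cd7 minus the mean log2 CPM of the CD3 genes (left) and of the CD8 genes (right) in each library, by group and run; lines are means and error bars SD. Rosa KO 1 (-0.84) lies within the Asxl1 KO range for CD3 genes but below it (-1.35) for CD8 genes.

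Genes whose pattern was most like Cd7 were sought among the 9633 genes that averaged 5 CPM or more, by Pearson's r of log2 CPM over the 17 libraries. The points share groups, runs and libraries, so r is a description. Lag3, an inhibitory receptor of activated T cells, was the only gene with r of at least 0.9 (r = 0.913, Spearman's rho = 0.939), where the median gene had r = 0.0182. Its level was 188, 78.5, 144 and 129 CPM in Asxl1 KO 1 to 4, 83.3, 115, 45.5 and 53.2 CPM in Dnmt3a KO 1 to 4, and 23.2, 21.0, 57.2 and 49.2 CPM in Tet2 KO 1 to 4. Rosa KO 1 to 5 had 95.6, 60.1, 53.5, 51.8 and 52.0 CPM of Lag3. As with Cd7, Rosa KO 1 stood above the rest of its group and the run 2 libraries were low in each knockout. Without the 2 libraries farthest from the Cd7 median (Asxl1 KO 3 and Asxl1 KO 1) r with Lag3 was 0.873, without all Asxl1 KO libraries 0.835, and after removing group and run 0.786.

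The next 5 were Cst7 (r = 0.887), which encodes the protease inhibitor cystatin F, the septin gene Sept4 (0.874), the chemokine receptor Cxcr6 (0.870), the CD3 chain Cd3g (0.870) and the prostaglandin E2 receptor Ptger4 (0.860). Among these 5, Sept4 had the largest ratio between group means, at 37.5 CPM in Asxl1 KO, 6.2 in Dnmt3a KO, 3.35 in Tet2 KO and 13.6 in Rosa KO. After group and run were removed, r with Cd7 was 0.800 for Ptger4 and 0.610 for Cxcr6, and 0.477, 0.478 and 0.479 for Cst7, Sept4 and Cd3g. Ranking by Spearman's rho kept 2 of the 6 genes, as did ranking after removing run, so only part of this list is stable. Without the Asxl1 KO libraries 3 of the 6 ranked in the top 100, Lag3 at 18, and Cxcr6, Cd3g and Sept4 ranked 117, 182 and 248. Without the 2 farthest libraries r ranged from 0.764 (Cd3g) to 0.873 (Lag3).

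Opposite to Cd7 ran Cmah (r = -0.912), which encodes the enzyme that makes the sialic acid Neu5Gc, the diacylglycerol kinase Dgkd (-0.902), the plasma membrane calcium pump Atp2b1 (-0.871) and the palmitoyltransferase Zdhhc20 (-0.870). Cmah averaged 184 CPM in Asxl1 KO, 375 in Dnmt3a KO, 405 in Tet2 KO and 221 in Rosa KO, so it was highest in the groups that had the least Cd7. Its r was -0.928 without the 2 farthest libraries and -0.952 without Asxl1 KO.

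**Figure D4:**
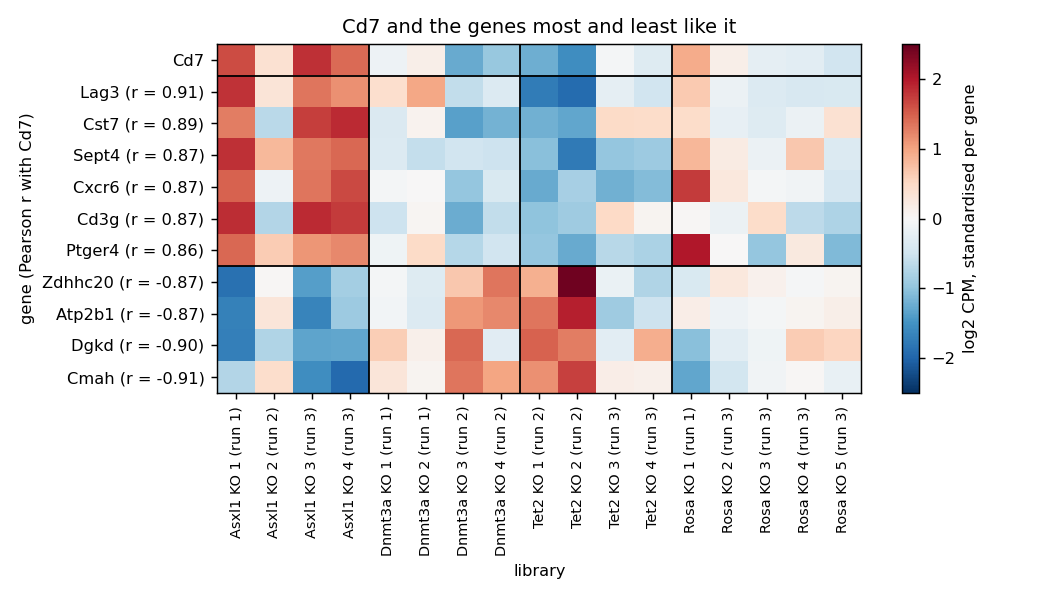
Log2 CPM of Cd7, the 6 genes most like it and the 4 most unlike it, standardised per gene (colour), in 17 libraries ordered by group; r with Cd7 stands beside each name. Asxl1 KO 1, 3 and 4 are high in the upper block and low in the lower, while Asxl1 KO 2 is near the middle for several genes, and Rosa KO 1 stands apart from the other Rosa KO libraries for Cd7, Cxcr6 and Ptger4.

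None of the 8 tested ligand and phosphoinositide 3-kinase genes was called in any comparison by edgeR or, against Rosa KO, by DESeq2. Of all tested genes 1.64%, 0.216% and 1.47% were called in Asxl1 KO, Dnmt3a KO and Tet2 KO against Rosa KO. Between knockouts at most 0.562% were called. So 0 of 8 is near the background and no result about these genes, the kinase genes below included. At an unadjusted p under 0.05 there was 1 of 8 in Asxl1 KO and 1 in Tet2 KO, and 0 in Dnmt3a KO, against Rosa KO. These counts have no background beside them, since the share of all tested genes at that unadjusted p was not counted. Both SECTM1-related genes lie next to Cd7, Sectm1b 13.9 kb and Sectm1a 27.9 kb away, and were close to absent: the most counts in any library were 4 and 7, each had 0 counts in 15 libraries, and neither was tested. Lgals1, the galectin-1 gene, was abundant at 761 CPM in Asxl1 KO, 569 in Dnmt3a KO, 822 in Tet2 KO and 656 in Rosa KO. Its log2 fold change over Rosa KO was 0.34 in Asxl1 KO (edgeR adjusted p = 0.341), 0.14 in Dnmt3a KO (0.920) and 0.67 in Tet2 KO (0.0742), and the Tet2 KO value passed the threshold under 7 of 27 alternatives, with Rosa KO 1 (0.77, 0.0444), Asxl1 KO 1 (0.66, 0.0438) or Dnmt3a KO 4 (0.74, 0.0158) left out among them. Of the 7 phosphoinositide 3-kinase genes, none was called in any comparison, and in Asxl1 KO over Rosa KO they lay between -0.43 for the regulatory subunit Pik3r2 and 0.47 for the catalytic subunit Pik3cb. The 8 tested ligand and kinase genes had a median log2 fold change of 0.08 in Asxl1 KO, -0.08 in Dnmt3a KO and -0.17 in Tet2 KO, beside 0.00043, -0.0030 and -0.02 over all genes.

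Among 8 genes of galectin-1 binding and glycosylation, only Cd2, a T cell adhesion receptor, passed the test in Asxl1 KO against Rosa KO (log2 fold change 0.64, adjusted p = 0.0383; 1.64% of all genes called). The count of 1 was 0 with B cell markers as a covariate and without each of Asxl1 KO 1, Asxl1 KO 3, Asxl1 KO 4, Dnmt3a KO 2, Tet2 KO 3, Rosa KO 2, Rosa KO 4 and Rosa KO 5, and 3 without Asxl1 KO 2. All genes called in this comparison numbered 227, against 192 with that covariate and 80 to 373 leaving out 1 library. Of the 8, none passed in Dnmt3a KO or Tet2 KO by edgeR or DESeq2. There 0.216% and 1.47% of all tested genes were called, so 0 of 8 is near the background. At an unadjusted p under 0.05 there were 0 and 2, and the share of all tested genes at that p was not counted.

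Several other T cell receptor and signalling genes were higher in Asxl1 KO. Of 16 tested, 7 rose and none fell in Asxl1 KO against Rosa KO (0.814% of all tested genes were called higher and 0.821% lower), with a median log2 fold change of 0.57. The adaptor Lat rose most (1.33, edgeR adjusted p = 8.63e-05), followed by the receptor Cd6 (0.90, 0.0483), the kinase Zap70 (0.85, 0.0424) and Cd3g (0.83, 0.00432). None of the 16 passed in Dnmt3a KO by edgeR or DESeq2, where 0.036% of all tested genes were called higher and 0.18% lower. At an unadjusted p under 0.05 there were 2 of 16, and the share of all tested genes at that p was not counted. Cd3d passed in Tet2 KO (0.68, 0.0405), where 0.987% were called higher and 0.483% lower. B cell markers summed to 529 to 1030 CPM in Asxl1 KO against 2130 to 2350 CPM in Rosa KO 2 to 5 and 408 CPM in Rosa KO 1. In run 1 the order was the other way, with 848 CPM in Asxl1 KO 1. None of the 10 B cell markers was called in Asxl1 KO against Rosa KO. With them as a covariate the Asxl1 KO count of 7 was 3. It was 1 without the run term, 2 without Asxl1 KO 3, 3 without each of Asxl1 KO 1, Asxl1 KO 4, Rosa KO 4 and Rosa KO 5, and 4 without each of Dnmt3a KO 2, Tet2 KO 3 and Rosa KO 3. Over all tested genes 227 were called, 192 with that covariate, 23 without the run term and 80 to 373 leaving out 1 library. Lat kept its call in all 28 alternatives.

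Of 9 genes of inhibition and exhaustion, 3 rose in Asxl1 KO (0.814% of all tested genes were called higher): Lag3 (1.27, adjusted p = 0.000593), the receptor Pdcd1 (0.97, 0.00429) and the transcription factor Tox (0.56, 0.0349). None of the 3 passed in Asxl1 KO without the run term. In Dnmt3a KO the ectonucleotidase gene Entpd1 fell (-0.90, 0.0210), and in Tet2 KO both Entpd1 (-1.40, 5.9e-05) and Tox (-0.65, 0.0249), where 0.18% and 0.483% of all tested genes were called lower. Tox levels moved only in part with Cd7 (r = 0.437).

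Among 11 genes shared with NK and innate-like T cells, the chemokine Xcl1 (2.27, 0.00199) and the protease-family gene Ctsw (1.01, 0.00437) rose in Asxl1 KO (0.814% of all tested genes were called higher). The count of 2 was 0 without the run term and 0 without Asxl1 KO 3 and 4 together, and it was 7 without Rosa KO 1, 5 without Asxl1 KO 1 and 4 without Asxl1 KO 2. The calls over all tested genes moved as well, from 227 to 23 without the run term and to 80 to 373 leaving out 1 library. Klrk1, encoding the activating receptor NKG2D, fell in Dnmt3a KO (-1.18, 0.0273; 0.18% of all genes called lower). Tet2 KO had Xcl1 higher (2.22, 0.00538) and the receptor Cd244a lower (-1.42, 0.0223), where 0.987% of all genes were called higher and 0.483% lower.

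Of 9 progenitor and memory genes, 1 rose and 1 fell in Asxl1 KO, 1 rose in Dnmt3a KO and 3 rose in Tet2 KO against Rosa KO. Of all tested genes 0.814%, 0.036% and 0.987% were called higher there. Only Tcf7 of the 9 was called in all 3 knockouts. Tcf7, the transcription factor TCF-1 of memory and stem-like T cells, had log2 fold changes over Rosa KO of 1.94 in Asxl1 KO, 1.79 in Dnmt3a KO and 1.95 in Tet2 KO (adjusted p = 8.63e-05, 0.00510 and 0.000268), and its r with Cd7 was 0.146. In Tet2 KO the cytokine receptor Il7r (2.23, 0.0108) and the SLAM family receptor Slamf6 (1.28, 0.00411) rose as well. Lef1, a partner of Tcf7, fell in Asxl1 KO (-1.11, 0.0484), a call that 18 of 28 alternatives ended. Of 10 effector genes 6 fell in Asxl1 KO, 5 in Dnmt3a KO and 3 in Tet2 KO, where 0.821%, 0.18% and 0.483% of all tested genes were called lower, among them the transcription factor Zeb2 (-2.27, -1.69 and -1.67) and the egress receptor S1pr5 (-2.04, -2.14 and -1.80), and none rose. All 3 knockouts share the same Rosa KO libraries.

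Genes next to Cd7 on the chromosome were examined as well. Within 300 kb the annotation holds 27 genes, of which 19 were listed and 12 tested, and none of the 12 was called in Asxl1 KO, Dnmt3a KO or Tet2 KO against Rosa KO, nor under any alternative, DESeq2 included. With 1.64%, 0.216% and 1.47% of all tested genes called in these comparisons, 0 of 12 is near the background and no result about the neighbours. At an unadjusted p under 0.05 there were 2 in Asxl1 KO, 1 in Dnmt3a KO and 0 in Tet2 KO. The share of all tested genes at that unadjusted p was not counted, so these counts are no result about the neighbours either. The nearest tested gene, Csnk1d, a casein kinase gene 45.4 kb away, had 135 CPM in Asxl1 KO, 111 in Dnmt3a KO, 92.4 in Tet2 KO and 106 in Rosa KO. Its log2 fold change in Asxl1 KO over Rosa KO was 0.17 (adjusted p = 0.741), against 1.71 for Cd7. The 12 tested neighbours lay between -0.65 (Wdr45b) and 1.45 (Hexdc) in Asxl1 KO over Rosa KO, with a median of -0.02.

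**Figure D5:**
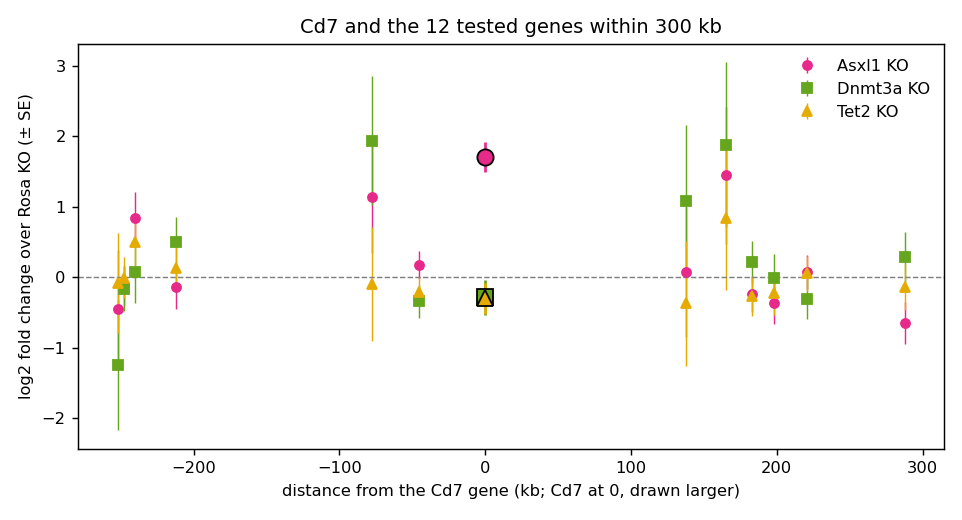
Log2 fold change over Rosa KO (± SE) of the 12 tested genes within 300 kb of Cd7 against their distance in kb, with Cd7 at 0 drawn larger, for Asxl1 KO, Dnmt3a KO and Tet2 KO. Among the Asxl1 KO values Cd7 (1.71) is above its neighbours (highest 1.45), while in Dnmt3a KO Slc16a3 reaches 1.94 with a long error bar.

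Markers of other cells were measured beside Cd7, and their part in its level was not tested. NK cells also carry CD7, and the 7 listed NK markers of 8 summed to 366 to 723 CPM in Asxl1 KO, 323 to 536 in Dnmt3a KO, 406 to 519 in Tet2 KO and 594 to 765 in Rosa KO. Asxl1 KO 1 had 723 CPM of NK markers against 594 CPM in Rosa KO 1, also of run 1. In Asxl1 KO over Rosa KO the list went both ways, with Eomes called higher (log2 fold change 1.15) and Klrb1c (-2.62) and Klre1 (-1.60) lower. Markers of gamma-delta T cells were near 0 in every library, at most 2.09 CPM for the 3 listed of 7, with Il17a at 0 throughout. The 5 CD4 and regulatory T cell markers summed to 59.9 to 107 CPM in Asxl1 KO, 118 to 223 in Dnmt3a KO, 51.3 to 59.5 in Tet2 KO and 31.6 to 109 in Rosa KO. B cell markers (10 of 10 listed) summed to 529 to 1030 CPM in Asxl1 KO, 543 to 1840 in Dnmt3a KO, 121 to 2200 in Tet2 KO and 408 to 2350 in Rosa KO. With B cell markers as a covariate the Cd7 log2 fold change in Asxl1 KO over Rosa KO was 1.63. Plasma cell markers (6 of 6 listed) summed to 225 to 300 CPM in Asxl1 KO, 150 to 580 in Dnmt3a KO, 39.3 to 526 in Tet2 KO and 355 to 641 in Rosa KO, and myeloid markers (9 of 9) to 703 to 1040 CPM in Asxl1 KO, 605 to 1370 in Dnmt3a KO, 206 to 1100 in Tet2 KO and 871 to 1560 in Rosa KO. Dendritic cell markers (8 of 8) had a median sum of 105 CPM in Asxl1 KO (89.2 to 143), at most 102 CPM in a Dnmt3a KO library, and medians of 93.2 in Tet2 KO and 90.8 in Rosa KO (56.8 to 96.4). Erythroid markers (4 of 6) summed to 2930 CPM in Asxl1 KO 1 and 75.2 to 162 in the other Asxl1 KO libraries, 31.7 to 521 in Dnmt3a KO, 25.4 to 79.7 in Tet2 KO, and 536 CPM in Rosa KO 1 and 60.9 to 101 in the other Rosa KO libraries.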

How the data were processed

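RNA-seq of 17 libraries of mouse spleen CD8 T cells was analysed from the tables of raw read counts per gene that the authors deposited, a table for each library. Per the labels' protocols, total RNA libraries were made with a stranded kit, and per the submitters' processing notes STAR 2.5.3a, DESeq2 1.26.0 and the build mm10 were used; the sources used here name neither the counter nor its strand setting. Groups came from the genetic modification labels. Counts were tested with edgeR 4.0.16 in R 4.3.3 (TMM scaling, a robust quasi-likelihood test, all 17 libraries in the fit, and terms for group and run of library numbers) after a filter of at least 10 counts in enough libraries and 15 in all, which left 13881 genes, with Benjamini-Hochberg adjustment over these and a threshold of 0.05. The common biological coefficient of variation was 0.604 with 11 residual degrees of freedom. CPM used TMM-scaled totals, log2 CPM a prior count of 2, and the fit of the test was checked on simulated data. The simulation held no run effect. It recovered 20% of log2 changes of 1 in Dnmt3a KO over Rosa KO and 26% in Tet2 KO over Rosa KO. For log2 changes of 2 these were 58% and 50%, so a gene not called can still have changed. Of the calls, 7.5% and 5.13% were false. Gene positions came from RefSeq, GRCm38.p6, and exon lengths from the GENCODE vM21 annotation.

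Cd7, the gene lists and the comparisons were chosen with earlier results of these data known. Genes were named by this rule: Cd7, its ligand and kinase list, tested genes within 300 kb, the 6 highest and 4 lowest by r (predicted genes, pseudogenes, microRNA and snoRNA genes and receptor segments left out), up to 4 called members per other list and comparison, and the targeted genes. Replicate numbers did not pair the libraries: same-numbered libraries of different groups had deviations correlated between -0.206 and 0.163 over 24 pairs, 2 of them over 0.1. No 2 libraries of a group agreed within sampling noise (lowest chi-square per gene 19.7 over 28 pairs). Alternatives tried were RLE size factors, DESeq2 1.42.0, no filter, no run term, a replicate block, only the groups compared, single runs, B cell markers as a covariate and each library left out; leaving out Asxl1 KO 3 and 4 together, leaving out the run 1 libraries and the within-run ratio to CD3 genes were chosen after seeing the data.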

Additional observations from a re-analysis of the deposited data

Results flagged for a closer look

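Of 140 group-wise checks of named genes, 13 had a library far from the others of its group by Dixon's criterion (0.829 for 4 libraries, 0.71 for 5). Chance gives about 1 in 20 for libraries drawn alike, which those of different runs need not be. Rosa KO 1, Asxl1 KO 1 and Asxl1 KO 2 were each the only library of their group in their run. Lag3, Cxcr6 and Ptger4 were named because their pattern was like that of Cd7. Cd7 itself had no such library. In Rosa KO 1 the level was 664 CPM for Sh2d2a (others 350 to 411), 95.6 CPM for Lag3 (51.8 to 60.1), 577 CPM for Cxcr6 (248 to 323), 290 CPM for Ptger4 (76.7 to 137), 1140 CPM for Tox (437 to 538), 102 CPM for Tcf7 (14.2 to 24.6) and 322 CPM for Entpd1 (up to 153), all above the other Rosa KO libraries, and 229 CPM for Klrk1 (373 to 410), below them. Rosa KO 2 had 139 CPM of Cd6 (58.3 to 80.8). Asxl1 KO 1 had 1260 CPM of Sh2d2a (544 to 575) and 383 CPM of Tcf7 (67.6 to 99.2). Asxl1 KO 2 was low, with 579 CPM of Cd3g (1300 to 1350) and 217 CPM of Ctsw (414 to 455).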

How the results depend on the processing

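The Cd7 log2 difference of Asxl1 KO, on which the gene was chosen, stayed positive in all 28 alternatives against each group. These alternatives reuse the values that chose the gene, so the constant sign is a description and no further support. Against Rosa KO the difference was 0.80 within run 1 and otherwise 1.31 to 2.09, with 1.498 to 2.07 leaving out 1 library. Cd7 was called in none of the 3 tested comparisons under any alternative (adjusted p from 0.0743 upwards), and the causes of the sign changes below were not tested. Dnmt3a KO over Rosa KO was 0.31 without Rosa KO 1 and 0.36 without the run 1 libraries, settings in which these groups share no run (-0.43 to 0.31 leaving out 1). With only the 2 groups it was -1.05. Tet2 KO over Rosa KO was 0.00648 within run 3, 0.0015 without Rosa KO 1 and 0.0152 without the run 1 libraries (-0.47 to 0.0015). Dnmt3a KO over Tet2 KO was -0.090 without Asxl1 KO 3 and 4 together and -0.17 to 0.30 leaving out 1. Lgals1 in Dnmt3a KO over Rosa KO was -0.21 without the run term, -0.20 with only the 2 groups or within run 1, and -0.074 to 0.35 leaving out 1. Cd7 over CD3 genes exceeded Rosa KO by 0.0267 within run 1 and by 0.74 to 1.09 leaving out 1. Of the 6 genes most like Cd7, 2 remained by Spearman's rho, 2 after run and 4 to 6 leaving out 1. Alternatives ended the Asxl1 KO call of Cd6 in 21 of 28 cases, Lef1 in 18, Zap70 in 17, Tox in 15 and Cd2 in 13, the Dnmt3a KO call of Klrk1 in 17 of 27 and Entpd1 in 11, and the Tet2 KO call of Cd3d in 16 and Tox in 9. With the replicate block, which does not pair these libraries, Cd7 was 1.56, 2.03 and 2.01 in Asxl1 KO over Rosa KO, Dnmt3a KO and Tet2 KO, -0.46 and -0.44 in Dnmt3a KO and Tet2 KO over Rosa KO, and -0.019 in Dnmt3a KO over Tet2 KO, and Lgals1 in Dnmt3a KO over Rosa KO was -0.021; the Asxl1 KO counts of called T cell receptor and NK-shared genes were 1 (7 without the block) and 1 (2). Genes called in all ranged over the alternatives from 23 to 664 (227) in Asxl1 KO over Rosa KO, 0 (within run 2) to 1301 (49) over Dnmt3a KO and 24 to 192 (78) over Tet2 KO, from 0 (replicate block) to 151 (30) in Dnmt3a KO and 23 to 408 (204) in Tet2 KO over Rosa KO, and from 1 to 73 (13) in Dnmt3a KO over Tet2 KO.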
